A study of Homo sapiens with 12 samples.

Results

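The noncoding RNA genes described here are MALAT1, NEAT1 and 8 small nucleolar RNA host genes, GAS5, SNHG1, SNHG5, SNHG6, SNHG8, SNHG12, SNHG15 and SNHG16. They were chosen by gene name, and these 10 genes stand among 58302 genes in the expression table of every library. A second identifier that carries the name MALAT1 in the tables is a short annotated element inside that gene, and it was listed at 0 in all 12 libraries.

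RNA was sequenced from 769-P and ACHN cells, human renal carcinoma lines that the study used as models of clear cell renal cell carcinoma (ccRCC). Each line was transfected for 48 h with si-NUF2, a mixture of 2 siRNAs against NUF2, or with si-NC, the negative control siRNA. NUF2 is a subunit of the Ndc80 complex, which joins kinetochores to spindle microtubules in mitosis. The 4 groups held 3 libraries each, and all cells, controls included, had received an siRNA, so no untransfected cells were compared. The labels do not say whether replicates came from separate cultures, and p-values here measure the spread between these libraries. Each line is a single established line, so a difference between the lines is between 769-P and ACHN as cultured here.

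MALAT1 is an abundant nuclear RNA of nuclear speckles, bodies rich in splicing factors. NEAT1 is the scaffold of paraspeckles, nuclear bodies that assemble on its long isoform and hold RNA-binding proteins such as NONO, SFPQ and PSPC1. The small nucleolar RNA (snoRNA) hosts carry snoRNAs in their introns. After splicing, the intron yields a snoRNA that guides chemical modification of ribosomal RNA, and the spliced host RNA, many of which begin with the 5′ terminal oligopyrimidine (TOP) tract of ribosomal protein mRNAs, is typically degraded by nonsense-mediated decay when ribosomes read it.

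Sequence features linked to these classes are shown first, read from the GENCODE 29 transcripts on GRCh38. For the hosts, the first 30 bases of the transcript with the longest initial pyrimidine run are given 5′ to 3′, with the run in capitals where it starts with C.

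GAS5, chr1:173867960-173867989, minus strand: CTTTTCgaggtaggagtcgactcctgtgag
SNHG16, chr17:76557769-76557798, plus strand: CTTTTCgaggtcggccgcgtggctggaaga
SNHG5, chr6:85678704-85678733, minus strand: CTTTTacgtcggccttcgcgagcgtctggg
SNHG8, chr4:118278758-118278787, plus strand: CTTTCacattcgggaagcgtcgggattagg
SNHG12, chr1:28581844-28581873, minus strand: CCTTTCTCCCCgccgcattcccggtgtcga
SNHG1, chr11:62855450-62855479, minus strand: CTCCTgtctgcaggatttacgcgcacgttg
SNHG15, chr7:44986541-44986570, minus strand: CCgccatcctgggccccacgtgttgcctga

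A transcript that starts with C and continues as a run of at least 5 pyrimidines was annotated for 7 of the 8 hosts, SNHG6 among them, and not for SNHG15. Over all GENCODE genes the share was 6.58%. Genes with more annotated transcripts have more chances to hold one, and of the 122 host transcripts 20 started so, or 16.4%, against 2.41% of all transcripts. The run is a description of annotated starts; the start sites used in these cells were not measured.

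The long NEAT1 transcript and MALAT1 share an A-rich stretch at the processed 3′ end. In both RNAs it folds with U-rich motifs into a triple helix in place of a poly(A) tail. The last 30 bases of the long NEAT1 transcript and the matching stretch of MALAT1 are given with the 11 shared bases in capitals.

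NEAT1, chr11:65445511-65445540, plus strand: ctgtgaaagagtgagcaggAAAAAGCAAAA
MALAT1, chr11:65506087-65506116, plus strand: ttttctagcttaaaaaaaaAAAAAGCAAAA

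The stretch occurred in the last 30 bases of 0.0223% of all transcripts. In MALAT1 it ended at the base before an annotated small RNA, RF01684, at chr11:65506117-65506173, the tRNA-like RNA that is cut from the MALAT1 3′ end. This small RNA was listed at 0 in every library.

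The genes lie on 7 chromosomes of GRCh38. MALAT1 (chr11:65497688-65506516) and the 22767-base NEAT1 (chr11:65422774-65445540) are plus-strand neighbours whose annotated transcripts together cover each gene without a gap, and SNHG1 (chr11:62851988-62855914) is on the same chromosome. SNHG12 (chr1:28578538-28583132), GAS5 (chr1:173863900-173868882), SNHG8 (chr4:118278709-118279823), SNHG5 (chr6:85660950-85678748), SNHG15 (chr7:44983023-44986961), SNHG6 (chr8:66921684-66926398) and SNHG16 (chr17:76557766-76565348) make up the rest.

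Only snoRNA gene identifiers with listed values were counted. GENCODE 29 places 19 of them inside 7 of the hosts, and none inside GAS5, although GAS5 is known as a host of C/D-box snoRNAs. Of these, 17 overlapped an annotated exon of their host, since intron-retaining host transcripts count as exons, and all 17 were listed at 0 in all 12 libraries. The 2 that overlapped no host exon were above 0, SNORD99 in SNHG12 at 3.16 to 9.60 FPKM (fragments per kilobase of exon, scaled to a common library size) and SNORD1B in SNHG16 at 0.688 to 2.03 FPKM. SNHG16 shows the contrast within 1 host: its SNORD1A and SNORD1C were listed at 0. These C/D-box snoRNAs guide 2′-O-methylation, and the capitals mark GATG, the core of box C, and CTGA, box D.

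SNORD1A, chr17:76561634-76561705, plus strand: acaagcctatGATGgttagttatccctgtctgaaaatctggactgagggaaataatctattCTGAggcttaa
SNORD1B, chr17:76561109-76561192, plus strand: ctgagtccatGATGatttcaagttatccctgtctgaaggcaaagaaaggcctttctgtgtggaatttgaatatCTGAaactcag
SNORD1C, chr17:76558791-76558868, plus strand: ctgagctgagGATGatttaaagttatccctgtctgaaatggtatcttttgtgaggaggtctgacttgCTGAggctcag

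Over the 288 SNORD transcripts of GENCODE 29, 91.3% held CTGA in their last 15 bases and 85.4% held GATG in their first 20. A 0 for a snoRNA is read here as a listing and not as a measure of the snoRNA, and its cause was not tested. EEF1G, a translation factor every cell uses, was also listed at 0 throughout. Opposite-strand genes overlap some hosts: GAS5-AS1 shares 42 exonic bases with GAS5 and stood at 0.673 to 1.96 FPKM, MCMDC2 shares 365 bases with SNHG6 and stood at 0.167 to 0.368 FPKM, and TRNAU1AP shares 8 bases with SNHG12 and stood at 2.81 to 3.49 FPKM. The longest of these overlaps is that of AC015802.6, which shares 1639 exonic bases with SNHG16 and stood at 0 to 0.0369 FPKM. Whether counting used strand is not given in the sources used here.

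Whole reads recovered from the FPKM came to 28703609 to 32624419 per library in 769-P and 33096746 to 38027095 in ACHN. The members held 440 reads (SNHG12, 769-P si-NC replicate 3, a counting error of 4.77%) to 34521 reads (NEAT1, ACHN si-NC replicate 2, 0.538%) in a library. NUF2 itself was 3.01 to 4.17 FPKM with si-NUF2 and 17.8 to 19.4 with si-NC in 769-P, and 2.16 to 5.14 against 11.6 to 15 in ACHN, in the direction of the labels in every library. Renal markers PAX8, CDH2, KRT8 and VIM were present in both lines, while CA9, a marker of ccRCC, was near 0 (group means of at most 0.0625 FPKM), CDH6 was near 0 in ACHN, and the leukocyte and endothelial markers had group means of at most 0.319 FPKM. Of 5 fibroblast markers, DCN and LUM had group means of at most 0.0473 FPKM, ACTA2 had 2.18 to 4.26 FPKM over the groups, and COL1A1 and PDGFRB had 2.08 to 2.26 and 0.588 to 1.22 FPKM in ACHN and at most 0.116 in 769-P. ACTA2 passed with the replicate number as a term in ACHN (log2 fold change 0.30, adjusted p = 0.0446, limma), and its part in the results below was not tested. The 2 ACHN libraries numbered 2 stood apart in both arms, with PAX8 at 57.1 and 57.6 FPKM against 144 to 199 in the other 4.

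First, the level of each gene was compared among the members. In 769-P with si-NC, SNHG6 stood first at 120 ± 8.79 FPKM (SD, n = 3), GAS5 second at 54.6 ± 5.06, and SNHG12 last at 4.87 ± 0.825. SNHG8 (43.4 ± 4.73) and SNHG5 (42.7 ± 3.07) overlapped each other, as did NEAT1 (31.9 ± 4.01), MALAT1 (29.5 ± 3.88) and SNHG1 (27.6 ± 4.74), and then SNHG16 (11.2 ± 0.652) and SNHG15 (9.38 ± 1.34). FPKM divides by the annotated exon length of a gene, from 923 bases for SNHG8 to 22767 for NEAT1. The order therefore also depends on the annotation, and the isoforms present were not measured.

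In ACHN with si-NC the order began with GAS5 at 61.8 ± 5.54 FPKM (SD, n = 3). SNHG6 (41.6 ± 4.11), SNHG8 (38.2 ± 10.1) and NEAT1 (37.2 ± 5.91) came next with overlapping libraries. SNHG1 (18.9 ± 2.94), SNHG16 (16.5 ± 1.60), SNHG5 (16.2 ± 0.446) and MALAT1 (13.1 ± 2.38) formed a lower group in which each overlapped its neighbour, and SNHG15 (8.71 ± 0.610) and SNHG12 (7.68 ± 0.917) closed the order. Among the 14160 genes tested in 769-P, the si-NC mean of SNHG6 lay at the percentile 98.0 and that of SNHG12 at 49.8. MALAT1 was at the percentile 88.7 in 769-P and at 76.7 among the 15116 genes tested in ACHN.

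**Figure D1:**
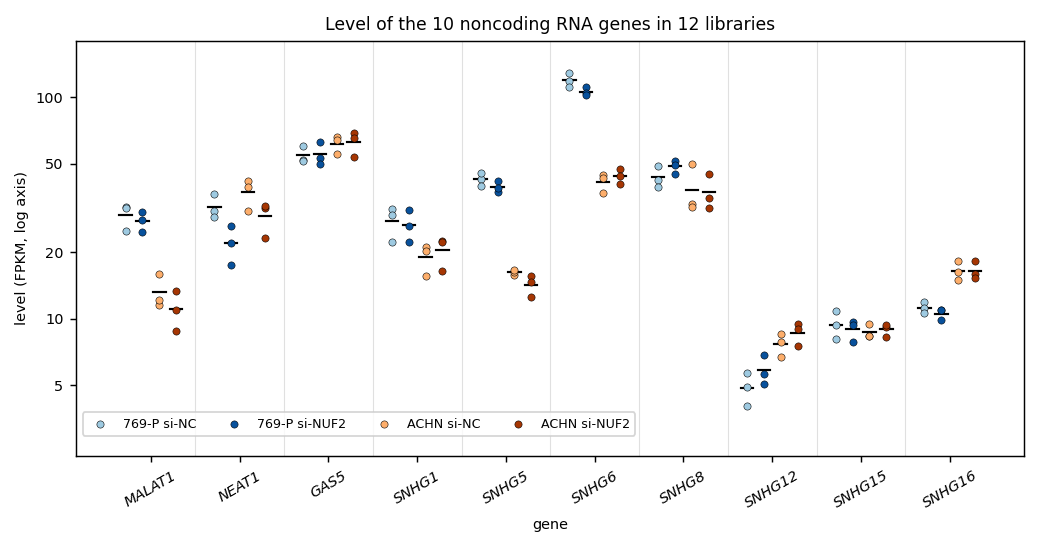
The plot gives the FPKM (log axis) of each of the 10 genes in each of the 12 libraries, 1 point a library and a black bar at the mean of each group of 3. SNHG6, SNHG5 and MALAT1 stand lower in both ACHN groups than in both 769-P groups, and SNHG12 and SNHG16 have higher means.

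Next, the lines were compared with si-NC in both. With si-NC, 6 of the 10 genes differed between ACHN and 769-P, 4 lower and 2 higher in ACHN, in a limma fit of all 12 libraries with Benjamini-Hochberg adjustment. Over all genes tested 63.5% differed, 32.7% lower and 30.8% higher, so this count is close to that of the transcriptome. In bulk RNA, fewer cells that carry an RNA and less RNA per cell cannot be told apart.

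SNHG6, host of SNORD87, stood at 118, 111 and 129 FPKM in the 769-P si-NC libraries and at 36.9, 44.5 and 43.4 in the ACHN si-NC libraries. The lines did not overlap, and the level in ACHN was 0.348 of that in 769-P (log2 difference −1.57, SE 0.0939, adjusted p = 1.67e-07, limma). SNHG5, host of SNORD50B, stood at 42.8, 39.6 and 45.7 FPKM in 769-P and at 15.7, 16.3 and 16.6 in ACHN (log2 difference −1.43, SE 0.0941, adjusted p = 3.25e-07, limma). MALAT1 was 31.8, 31.5 and 25.0 FPKM in 769-P and 11.5, 15.9 and 12.1 in ACHN, 0.446 of the 769-P level (log2 difference −1.21, SE 0.172, adjusted p = 0.00011, limma). No ACHN library of these 3 genes reached the lowest 769-P library of the same gene.

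SNHG12, host of SNORA16A, SNORA44, SNORA61 and SNORD99, was lower in 769-P, at 5.67, 4.91 and 4.02 FPKM, than in ACHN, at 7.86, 6.69 and 8.50 (log2 difference 0.61, SE 0.160, adjusted p = 0.00636, limma). SNHG16 was 11.9, 11.2 and 10.6 FPKM in 769-P and 18.2, 15 and 16.3 in ACHN (log2 difference 0.50, SE 0.0982, adjusted p = 0.00102, limma). Both were higher in every ACHN si-NC library than in any 769-P si-NC library. SNHG1, which carries SNORD22, SNORD25, SNORD26, SNORD27, SNORD28 and SNORD30, was lower in ACHN, at 15.6, 21.0 and 20.2 FPKM against 31.2, 29.3 and 22.2 (log2 difference −0.58, adjusted p = 0.018, limma). Its call rested on single libraries, since the adjusted p was 0.0709 without 769-P si-NC replicate 1, 0.0601 without 769-P si-NC replicate 2 and 0.07 without ACHN si-NC replicate 1.

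The 4 other genes did not pass the test. NEAT1 was 36.4, 30.6 and 28.7 FPKM in 769-P and 41.7, 39.3 and 30.5 in ACHN, with overlap (log2 difference 0.17, 95% interval −0.24 to 0.58). The difference in GAS5 was 0.13 (−0.14 to 0.41) and that in SNHG15, host of SNORA9, was −0.14 (−0.41 to 0.12). SNHG8, host of SNORA24, was 48.7, 42.2 and 39.5 FPKM in 769-P and 32.8, 49.8 and 31.9 in ACHN. The high ACHN value is replicate 2. With both ACHN libraries of that number left out, a choice made after the data were seen, SNHG8 was lower in ACHN (log2 difference −0.47, adjusted p = 0.00476, limma). SNHG8 passed in 2 of 15 alternatives, and its log2 difference lay between −0.47 and −0.14 over them.

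Then si-NUF2 was compared with si-NC within each line. Without a replicate block, no member passed an adjusted p of 0.05 in either line, where 5.29% of genes passed as higher and 4.74% as lower in 769-P, and 0% passed in ACHN (limma; 1 member in 769-P and 0 in ACHN had an unadjusted p under 0.05, as did 1238 genes in ACHN). Libraries with the same number in the 2 arms deviated together, and limma with that number as a blocking term, the replicate block, called NEAT1 lower in both lines and SNHG8 and SNHG12 higher in 769-P. That is 3 of 10 members in 769-P, where this fit called 27.5% of genes (13.6% higher and 14.0% lower), and 1 of 10 in ACHN, where it called 12.2% (5.05% lower). Neither count sets the members apart from other genes.

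NEAT1 was lower with si-NUF2 in all 6 same-numbered pairs, and the 3 pairs of a line moved the same way for 63.0% of genes in 769-P and 54.9% in ACHN. In 769-P it stood at 26.1, 22.0 and 17.5 FPKM with si-NUF2 and at 36.4, 30.6 and 28.7 with si-NC, so the groups did not overlap, as was so, in this direction, for 17.3% of genes tested in that line. The mean with si-NUF2 was 68.5% of that with si-NC (log2 fold change −0.55, SE 0.158, 95% interval −0.92 to −0.17, adjusted p = 0.0729, limma), and the exact permutation p was 0.1, the smallest that 3 against 3 libraries allow. With the replicate block the adjusted p was 0.0073 (SE 0.0622), and limma-voom on the recovered reads, without a block, gave 0.0404.

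In ACHN, NEAT1 stood at 31.7, 32.3 and 23.1 FPKM with si-NUF2 and at 41.7, 39.3 and 30.5 with si-NC. Replicate 3 was the lowest of each arm and the groups overlapped through it, while the log2 differences within the pairs were close, at −0.40, −0.28 and −0.40. The fitted log2 fold change was −0.34 (SE 0.183, 95% interval −0.79 to 0.10, adjusted p = 0.742, limma), and with the replicate block the adjusted p was 0.0194 (SE 0.0444). The fold change of NEAT1 kept its sign in all 17 alternatives computed in each line. It lay between −0.68 and −0.40 in 769-P, and the ACHN values lay between −0.48 and −0.19. NEAT1 passed in only 2 of the 17 alternatives in 769-P, the replicate block and limma-voom, and in 1 of 17 in ACHN, the block. The highest adjusted p among the alternatives was 0.214 in 769-P and 0.999 in ACHN (limma).

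MALAT1 with si-NUF2 was 28.0, 30.3 and 24.7 FPKM against 31.8, 31.5 and 25.0 with si-NC in 769-P (log2 fold change −0.08, 95% interval −0.36 to 0.21). In ACHN it was 8.84, 13.3 and 10.9 against 11.5, 15.9 and 12.1 (log2 fold change −0.24, 95% interval −0.71 to 0.23). Both lines overlapped between arms, and MALAT1 passed neither without the block (adjusted p = 0.723 and 0.88, limma) nor with it (adjusted p = 0.308 and 0.0614).

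RN7SL2, a signal recognition particle RNA gene whose product has no poly(A) tail, moved with NEAT1 across the arms. It was 2005, 2313 and 676.1 FPKM with si-NUF2 against 2773, 3589 and 1241 with si-NC in 769-P. In ACHN it was 2028, 3795 and 3431 against 4164, 5590 and 4120, and it was lower in every pair. The log2 fold changes were −0.65 (SE 0.546) in 769-P and −0.60 (SE 0.268) in ACHN. The adjusted p was 0.494 and 0.64 without the block, and 0.00791 and 0.0591 with it (limma). Of the 6 RNAs without a poly(A) tail that were looked up, RN7SL2 alone passed the filter. RMRP, RPPH1, RN7SK and RN7SL1 were listed at 0, and TERC had group means of at most 0.0397 FPKM. RN7SL2 shares sequence with RN7SL1 and many copies, so its level is uncertain. The mature ends of the long NEAT1 transcript and of MALAT1 shown above also lack a poly(A) tail. The FPKM of NEAT1 is for the whole gene and does not separate its isoforms. How the libraries selected RNA is not given in the sources used here, and the part of selection in the NEAT1 result was not tested.

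**Figure D2:**
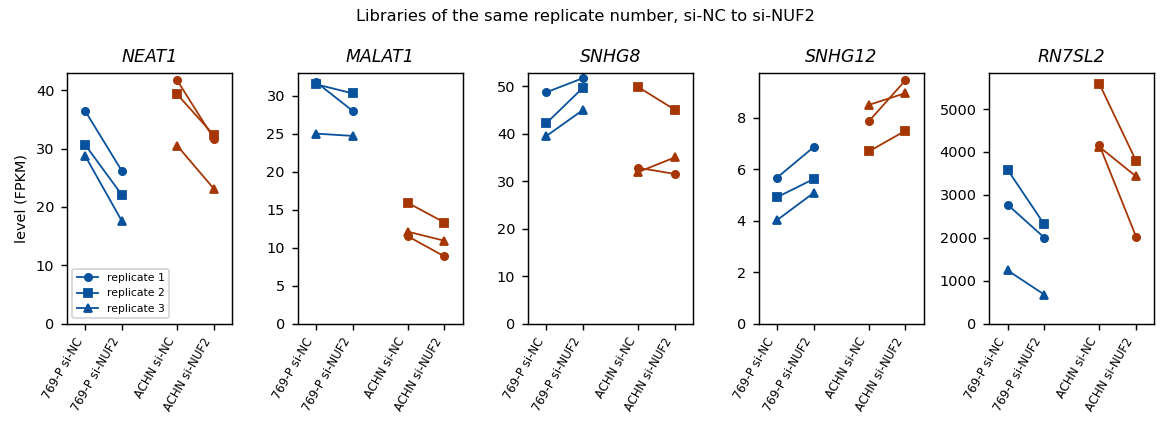
Lines join the si-NC and si-NUF2 libraries of the same replicate number in 769-P (blue) and ACHN (brown), with the level in FPKM on axes that start at 0. NEAT1 and RN7SL2 are lower with si-NUF2 in all 6 pairs, SNHG12 is higher in all 6, MALAT1 is lower in all 6, and SNHG8 goes up in 4 pairs and down in 2.

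Among the hosts, SNHG12 and SNHG8 were higher with si-NUF2 in every 769-P pair. SNHG12 was 6.86, 5.62 and 5.08 FPKM with si-NUF2 and 5.67, 4.91 and 4.02 with si-NC, with overlap between the arms (log2 fold change 0.27, SE 0.159, adjusted p = 0.318 without and 0.0276 with the block, limma). SNHG8 was 51.7, 49.7 and 45.0 FPKM against 48.7, 42.2 and 39.5 (log2 fold change 0.18, SE 0.0983, adjusted p = 0.288 without and 0.0457 with the block, limma). In ACHN, SNHG12 was 9.46, 7.50 and 8.96 against 7.86, 6.69 and 8.50 (log2 fold change 0.18, adjusted p with the block = 0.109, limma). SNHG8 in ACHN was 31.5, 45.0 and 35.0 against 32.8, 49.8 and 31.9, a log2 fold change of −0.01 (95% interval −0.54 to 0.53), the widest interval of the members in that line.

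The other hosts passed in neither fit. SNHG6 in 769-P was 111, 105 and 102 FPKM with si-NUF2 against 118, 111 and 129 with si-NC, lower and without overlap before rounding, though the nearest libraries both round to 111 (log2 fold change −0.16, adjusted p with the block = 0.108, limma), and in ACHN 40.7, 47.5 and 44.3 against 36.9, 44.5 and 43.4 (0.11, adjusted p with the block = 0.178). SNHG5 in ACHN was 12.5, 15.6 and 14.7 against 15.7, 16.3 and 16.6, lower without overlap (−0.17, adjusted p with the block = 0.138), as were 6.44% of genes. In 769-P, SNHG5 was 41.9, 37.4 and 38.8 against 42.8, 39.6 and 45.7 (−0.11, adjusted p with the block = 0.195).

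GAS5, known for its accumulation when growth stops, was 63.1, 53.2 and 50.2 FPKM with si-NUF2 and 60.4, 51.9 and 51.5 with si-NC in 769-P, and 53.9, 69.3 and 65.3 against 55.5, 65.9 and 64.0 in ACHN. Its log2 fold changes were 0.03 (95% interval −0.23 to 0.29) and 0.04 (−0.28 to 0.35).

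SNHG1, SNHG15 and SNHG16 had overlapping arms in both lines, with fitted differences within 0.12 of 0 on the log2 scale. SNHG1 was 31.1, 26.3 and 22.2 FPKM with si-NUF2 and 31.2, 29.3 and 22.2 with si-NC in 769-P (log2 fold change −0.05), and 16.4, 22.5 and 22.2 against 15.6, 21.0 and 20.2 in ACHN (0.12). SNHG15 was 9.68, 9.32 and 7.84 FPKM against 9.33, 10.8 and 8.07 in 769-P (−0.06), and 8.30, 9.18 and 9.35 against 8.39, 9.42 and 8.34 in ACHN (0.05). SNHG16 was 10.9, 10.9 and 9.86 FPKM against 11.9, 11.2 and 10.6 in 769-P (−0.08), and 18.2, 16 and 15.3 against 18.2, 15 and 16.3 in ACHN (0.02). For all 3 genes the libraries of an arm spread over a wider range than the arm means were apart. The median log2 fold change of the 10 members was −0.07 in 769-P and 0.03 in ACHN, beside −0.01 and 0.01 over all genes tested.

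**Figure D3:**
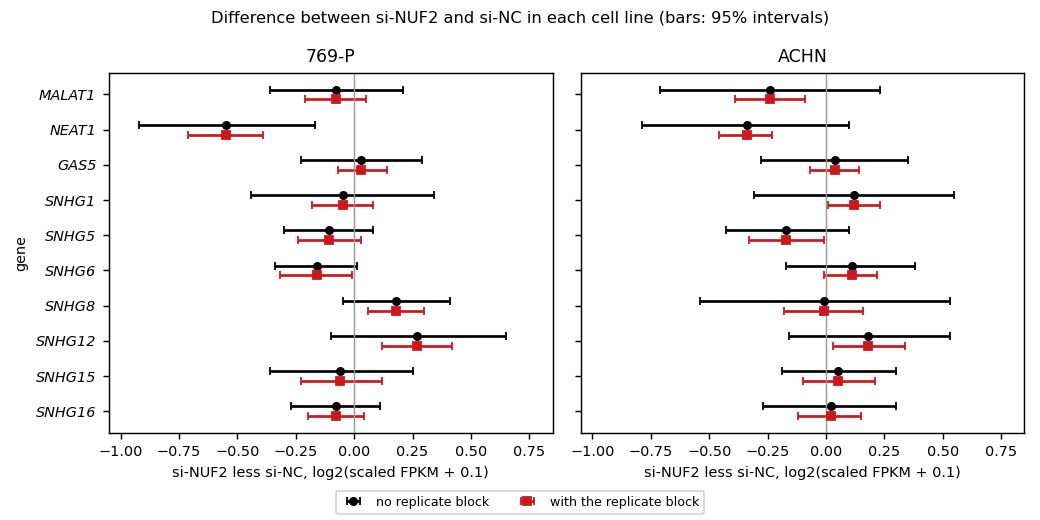
For each gene and line, the plot gives the log2 fold change of si-NUF2 against si-NC with its 95% interval, without (black circles) and with (red squares) the replicate block. The intervals with the block are the narrower in every row but leave the fold changes in place, and NEAT1 is the member farthest below 0 in both lines.

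The response was then compared between the lines in 1 fit with an interaction term. No member differed (adjusted p = 0.999 for all 10 members, limma), and no gene of 16570 did, with 772 genes and 0 members at an unadjusted p under 0.05. With the block, 1.39% of genes and no member passed. SNHG6 had the lowest adjusted p of the members with the block, 0.146, and NEAT1 had 0.235, so the difference between the 2 NEAT1 fold changes was not resolved.

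Related gene lists give the setting of these values, with list medians between −0.02 and 0.14 in 769-P and between −0.03 and 0.11 in ACHN. Beside the counts below stand the shares of all genes tested. Without the block, 5.29% passed as higher and 4.74% as lower in 769-P, and 0% passed in ACHN. With the block, 13.6% passed as higher and 14.0% as lower in 769-P, and 12.2% in either direction in ACHN. No list was tested as a set. Of 17 other snoRNA hosts tested in 769-P, 0 passed without the block and SNHG4 passed with it (0.43, adjusted p = 0.0308, limma). Of 19 tested in ACHN, 0 passed in either fit. SNHG19, LRRC75A-AS1 and C6orf48, the other hosts with the most RNA by their mean over the 4 groups, had group means of 42.0 to 91.3, 67.4 to 70.5 and 57.3 to 81.1 FPKM. Their log2 fold changes were 0.02, −0.05 and −0.15 for 769-P and 0.19, 0.04 and −0.22 for ACHN, and none of the 3 passed in either fit. Of 17 other TOP mRNAs tested, EIF3F, a translation initiation factor subunit, passed in 769-P (0.88, adjusted p = 0.00795, limma). With the block, 7 passed in 769-P, where 13.6% of all genes passed as higher. In ACHN 3 passed, where 1079 of 15116 genes passed as higher and 12.2% passed in either direction. The called list genes were all higher, with list medians of 0.14 and 0.11.

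Of 18 paraspeckle proteins, TAF15 rose in 769-P (0.48, adjusted p = 0.0191, limma) and 3 fell, among them RBM14 (−0.42, adjusted p = 0.0487). With the block 4 rose and 3 fell in 769-P, beside 13.6% and 14.0% of all genes. In ACHN 3 rose and 0 fell, beside 12.2% of all genes in either direction. The list median was 0.04 and 0.06. Of 18 nuclear speckle proteins, RNPS1, a splicing activator of the exon junction complex, rose in 769-P (0.47, adjusted p = 0.0211, limma) and, with the block, in ACHN (0.43, adjusted p = 0.0134).

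Of 10 proteins that bind or assemble snoRNAs, NOLC1, a nucleolar chaperone of these particles, rose in 769-P (0.76, adjusted p = 0.044, limma). With the block 3 rose there, with DKC1 (0.25, adjusted p = 0.0193) and NOP10 (0.27, adjusted p = 0.0107), and RRP9 fell (−0.27, adjusted p = 0.0268). In ACHN, NOLC1 (1.21, adjusted p = 0.0118) and DKC1, the pseudouridine synthase of H/ACA particles (0.35, adjusted p = 0.0337), rose with the block. Of 15 nonsense-mediated decay factors, CASC3 rose in 769-P (0.44, adjusted p = 0.0159, limma). With the block UPF2 rose (0.20, adjusted p = 0.0485) and EIF4A3 fell (−0.21, adjusted p = 0.0407) there too, and 0 passed in ACHN in either fit. Of 11 transcripts known to be limited by this decay, 0 passed without the block, and with it 3 rose and 1 fell in 769-P. Those that rose included GADD45B (0.40, adjusted p = 0.0129, limma) and UPF2, which is on both lists. In ACHN HNRNPDL rose (0.22, adjusted p = 0.0331) and GADD45B, opposite to its direction in 769-P, fell (−0.60, adjusted p = 0.0254).

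Of 10 other long noncoding RNAs tested, OIP5-AS1 fell in 769-P (−0.48, adjusted p = 0.0346, limma) and, with the block, in ACHN (−0.31, adjusted p = 0.0418). With the block NORAD, which binds Pumilio proteins, rose in 769-P (0.26, adjusted p = 0.0132). Over the 12 libraries, with each line's mean subtracted, the level of OIP5-AS1 followed NEAT1 most closely (Pearson r = 0.958 of 10042 candidate genes). SLC25A10 (0.937) and PUS7L (0.936) came next. Only the line mean was subtracted, so the difference between si-NUF2 and si-NC, downward for both NEAT1 and OIP5-AS1, stays in r. CLASRP (0.937), ASPHD1 (0.927) and SLC41A1 (0.921) were most like MALAT1, and NDOR1 (0.95) and EHBP1L1 (0.918) were among the 3 most like the mean of the hosts. These correlations are descriptions over libraries that share scaling, replicate numbers and siRNA arms. MALAT1 and NEAT1 correlated at 0.444, and the 28 pairs of hosts ran from −0.453 to 0.883 with a median of 0.247, so the hosts did not vary as 1 unit.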

How the data were processed

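RNA from 12 libraries (769-P and ACHN, si-NUF2 or si-NC, 3 each) was sequenced on the Illumina NovaSeq 6000. The deposited values are FPKM per gene, which the authors made with HISAT2 2.0.5 and featureCounts 1.5.0-p3 on hg38, per the submitters' processing notes, after fastp filtering. The annotation release, strand setting and RNA selection are not given in the sources used here. FPKM fixes neither isoform nor multi-mapped reads.

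FPKM were scaled by a trimmed mean of log ratios (30% of ratios and 5% of levels trimmed), filtered at 0.5 in at least 3 libraries, and tested as log2(scaled FPKM + 0.1) with limma 3.58.1 (eBayes with trend, R 4.3.3) over all genes, each line alone, Benjamini-Hochberg adjusted p under 0.05. The interaction and the line contrast used all 12 libraries. Fold changes are on that log2 scale, which understates low genes. Levels are unscaled FPKM. The fit was tested on simulated data.

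Multiplying FPKM by GENCODE 29 exon length gave whole reads (within 0.02 of a read) for 97.7% of the genes above 0. For 892 genes, MALAT1, SNHG5 and SNHG12 among them, another length was found by search (8755, 2794 and 3377 bases for these 3), so the authors' annotation differs from GENCODE 29 there, and exon overlaps given for SNHG12 hold for GENCODE 29.

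Same-numbered libraries of the 2 arms were checked for pairing: their deviations from the group means correlated at 0.274, 0.204 and 0.126 in 769-P and at 0.57, 0.67 and 0.376 in ACHN, all above 0.1, so values with the replicate block stand beside results it changes. The pairing comes from the data, since the labels give only the number. The alternatives were other scalings, pseudocounts and filters, limma-voom on recovered reads, 1 fit of all 12 libraries, and each library left out.

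All 10 genes were described by name. The members and the gene lists were chosen with earlier results of these data known. From each list, up to 2 called genes of the highest and 2 of the lowest fold change were eligible to be named; SNHG19, LRRC75A-AS1, C6orf48, DKC1 and NOP10 in 769-P, RRP9, UPF2 and EIF4A3 were named after their values were seen. Genes most like a member were the 3 with the highest Pearson r over 12 libraries, after each line's mean was subtracted, among genes of at least 1 FPKM in all. Some genes that these rules name are not reported here.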

Additional observations from a re-analysis of the deposited data

Results flagged for a closer look

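The responses of SNHG1 and SNHG6 were set apart because every same-numbered pair was lower with si-NUF2 in 769-P and higher in ACHN. For SNHG1 in 769-P the pairs differed by only −0.01, −0.15 and −0.01 on the log2 scale, from unscaled FPKM. The response in ACHN less that in 769-P was 0.16 on the log2 scale for SNHG1 and 0.26 for SNHG6. The interaction test did not pass for either gene (limma, adjusted p = 0.999 for both without the replicate block, and 0.221 for SNHG1 and 0.146 for SNHG6 with it), so a difference between the lines was not shown.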

How the results depend on the processing

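Of 720 fold changes of single members under the alternatives, 678 kept their direction and side of the threshold, 7 passed where they had not, 3 no longer passed and 32 turned sign, 26 of them with 1 library left out and 0 of them past the threshold. The 6 others were the response in ACHN of SNHG16 (−0.001 with no further scaling, −0.000 by limma-voom and −0.020 without both libraries of ACHN replicate 2) and of SNHG8 (0.006 with upper-quartile scaling and 0.063 without those libraries), and the line difference of GAS5 (−0.01 with upper-quartile scaling, which also moved the median of all genes to −0.17). With 1 library left out, the response in 769-P ran from −0.068 to 0.114 for GAS5, −0.195 to 0.075 for SNHG1 and −0.159 to 0.046 for SNHG15. In ACHN it ran from −0.045 to 0.135 for GAS5, −0.020 to 0.261 for SNHG1, −0.147 to 0.205 for SNHG8 and −0.063 to 0.083 for SNHG16. The difference between the lines' responses ran from −0.080 to 0.101 for GAS5, −0.139 to 0.020 for SNHG5, −0.341 to 0.014 for SNHG8 and −0.204 to 0.037 for SNHG12. The genes called in 769-P numbered 649 with no filter on low values, 3897 with the replicate block, 718 in 1 fit of all 12 libraries, 365 to 1144 with 1 library left out and 54 without both libraries of replicate 3, beside 1420; the members called numbered 3 with the block and 1 by limma-voom, beside 0. In ACHN the block called 1843 genes and 1 member, and the fit of 12 libraries called 165 genes and 0 members, beside 0. For the difference between the lines' responses, 2 genes passed with a pseudocount of 0.01, 15 with no filter, 230 with the block, 0 to 1 with 1 library left out and 3 without replicate 3 of 769-P. With FPKM of at least 1 in every library, 6479 genes differed between the lines with si-NC, of fewer genes tested. The block changed no other call of a member, the line contrast has no paired form, and leaving out both libraries of ACHN replicate 2 or 769-P replicate 3 was chosen after the data were seen. Of 10 members, 5 to 7 differed between the lines with 1 library left out. The cause of each change was not tested. The members held at least 440 reads in every library, a counting error of at most 4.77%, and with 3 libraries a group the exact permutation test cannot go below 0.1.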
